A study of Drosophila melanogaster with 6 samples.

Results

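The response of spz[rm7] mutant flies to a Gram-positive bacterium was read as the ratio of 2 single arrays, chosen by their labels from the 6 arrays of the series: rm7 bacteria and rm7 PBS. The first held RNA from adult flies of genotype spz[rm7], which is mutant for spz, the Spätzle gene, taken 12 h after injection of Staphylococcus saprophyticus, and the second RNA from adult flies of the same genotype taken 12 h after injection of phosphate-buffered saline (PBS). The 4 other arrays held gyc76c[revert] control flies and gyc76c[KG03723] mutant flies after either injection and are used here only to show where rm7 differed. They are called revert and KG03723, and both lack a spz mutation in their labels. The tissue was the whole body in every group, with 1 array per group. The labels state neither how many flies nor which sex went into an array, and they do not say whether the 3 genotypes share a genetic background.

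Spätzle is the secreted ligand of the Toll receptor. Microbial peptidoglycan or glucan, or microbial proteases, start a chain of serine proteases in the hemolymph that ends in the cleavage of Spätzle. Toll then acts through Myd88, tube and pelle on the inhibitor cactus, and frees the NF-kappaB factors Dif and dorsal, which switch on bomanin and drosomycin genes. Peptidoglycan of the lysine type, which staphylococci carry, is known mainly as a trigger of this chain. The IMD pathway is the other main route to antimicrobial peptides in the fly fat body: it reads peptidoglycan of the diaminopimelic acid type through PGRP-LC and PGRP-LE, acts through imd, Fadd and the caspase Dredd, and activates the NF-kappaB factor Relish. Several of its targets, among them PGRP-LB and pirk, in turn restrain it. The spz[rm7] allele is widely used as a loss-of-function allele, but the labels describe it only as mutant. The spz transcript was at 813 in rm7 bacteria and 951 in rm7 PBS, against 942 to 1122 on the 4 other arrays, so the array does not by itself check the lesion.

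Values are linear MAS5 signals as deposited, and anything dimmer than 42.7, the 40th percentile over the table, was raised to that floor. With 1 array a side, the ratio of rm7 bacteria over rm7 PBS has no replicate error and no p-value, and its spread over genes served as the only gauge of noise. Among genes with a geometric mean signal of 300 to 1000, the log2 ratio had a standard deviation of 0.288 over 3383 genes, and 0.266% of them were at least 2-fold apart. Between the floor and 100 the standard deviation was 0.423 over 1079 genes, and 2.13% were at least 2-fold apart, so large ratios of dim genes carry less weight. Over all 9256 genes above the floor on both arrays the 1st and 99th percentiles of the log2 ratio were -0.69 and 0.90. The median log2 ratio varied with brightness. It was 0.16 between the floor and 100, 0.13 from 100 to 300, and -0.07 from 300 to 1000. It was -0.06 from 1000 to 3000 and 0.07 above 3000. In 425 genes with a second probe set above the floor, the 2 probe sets' log2 ratios differed by a median of 0.229, and 10 pairs differed by 1 or more. Signals of 9 spiked control transcripts gave log2 ratios of 0.03 to 0.28. For RNA integrity, 3'/5' ratios were 2.81 in rm7 bacteria and 2.31 in rm7 PBS for actin, 2.68 and 2.20 for GAPDH, and 6.61 and 6.34 for eIF-4a, and their part in the results below was not tested.

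The rm7 response held immune genes among others at its upper end and a group of eggshell genes at its lower end. Of 9783 genes above the floor on at least 1 of the 2 arrays, 63 (0.644%) were at least 2-fold higher in rm7 bacteria and 33 (0.337%) at least 2-fold lower, which makes 96 (0.981%) in either direction, and the median log2 ratio was 0.00. Quantile normalization gave 37 higher and 45 lower, and cyclic loess 46 and 38, so the balance of the 2 directions depends on the scaling. The 63 higher genes were not fewer than those of revert (59, 0.611%) or KG03723 (48, 0.496%). Only the 33 lower genes were fewer than in revert (346, 3.58%) and KG03723 (87, 0.9%). Of the 63, 18 were at the floor in rm7 PBS, so that their fold is only a bound, and 10 reached a signal over 500 in rm7 bacteria. Of the 33, 9 were at the floor in rm7 bacteria and 11 exceeded 500 in rm7 PBS. Those 10 and 11 genes were AttD, CecB, Listericin, PGRP-LB, Gnmt, mat, Act88F, CG31909, CG17575 and CG9897 at the upper end, and Cp15, Cp16, Cp18, Cp19, Femcoat, Muc12Ea, CG13083, Obp99b, Lsp2, Srg2 and CG43085 at the lower end. A gene number with the prefix CG, which marks a gene without a given name, was the only symbol of 39 of the 63 and 17 of the 33.

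**Figure D1:**
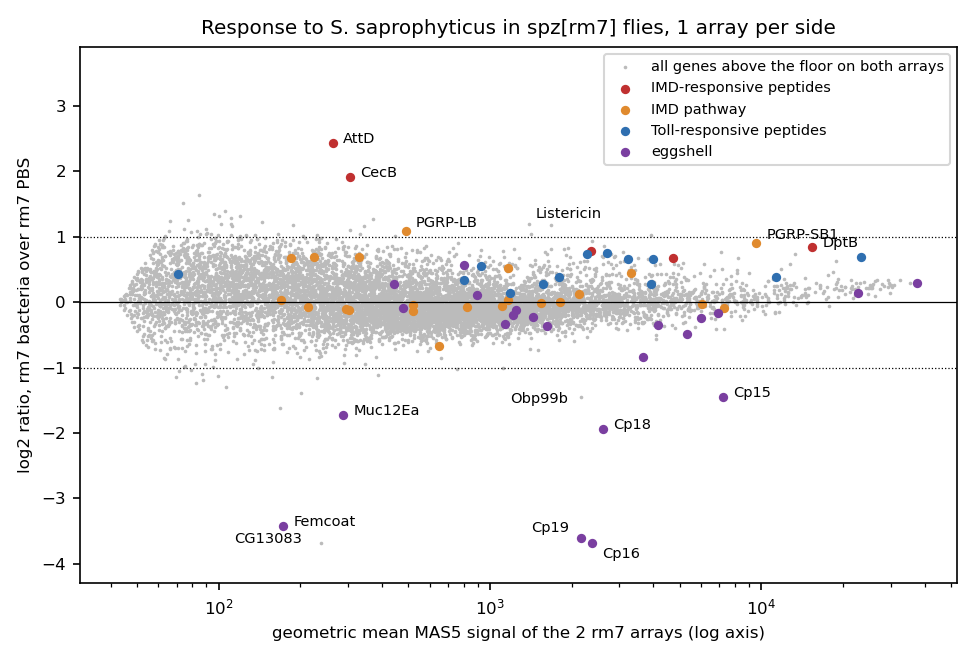
Log2 ratio of rm7 bacteria over rm7 PBS (vertical axis) against the geometric mean MAS5 signal of the 2 arrays (horizontal log axis), 1 point per gene above the floor of 42.7 on both arrays; dotted lines mark 2-fold. AttD (2.43) and CecB (1.91) stand above the cloud, and Cp16 (-3.69), Cp19 (-3.61), CG13083 (-3.68) and Femcoat (-3.43) stand below it.

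Peptide genes of the IMD pathway were all higher in rm7 bacteria than in rm7 PBS. Of 13 listed genes 5 were on the array with a probe set of their own, and each of the 5 had a positive log2 ratio (median 0.84), where 50.4% of all genes lay above 0. AttD, which encodes an attacin, was at 611 in rm7 bacteria and 114 in rm7 PBS, a 5.37-fold difference and the largest of any gene above the floor on both arrays. The same gene was at 974 and 825 in revert bacteria and revert PBS, and at 473 and 548 in KG03723 bacteria and KG03723 PBS. The rm7 PBS signal of AttD was the lowest of the 6 arrays, so its large ratio sits on a low starting level. CecB, which encodes a cecropin, was at 592 in rm7 bacteria and 157 in rm7 PBS, 3.76-fold apart, against 451 and 243 in revert and 244 and 149 in KG03723 after bacteria and PBS. Its rm7 bacteria signal was the highest of the 6.

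The 3 brighter IMD peptide genes had smaller ratios. DptB, a diptericin gene, was at 20561 in rm7 bacteria and 11516 in rm7 PBS (log2 ratio 0.84). It was at 24067 and 18705 in revert and at 25323 and 23154 in KG03723, bacteria before PBS. The rm7 bacteria signal of DptB lay between the PBS signals of the other genotypes. The secreted infection-induced gene edin was at 3087 in rm7 bacteria and 1799 in rm7 PBS (0.78), against 7832 and 4656 in revert and 4926 and 5083 in KG03723, where it was lower after bacteria. The defensin gene Def was at 5956 in rm7 bacteria and 3742 in rm7 PBS (0.67), against 7683 and 4475 in revert and 2253 and 2068 in KG03723. The median log2 ratio of these 5 genes was 0.75 in revert and 0.12 in KG03723. Listericin, an antibacterial peptide gene not on the list, was at 2107 in rm7 bacteria and 924 in rm7 PBS, 2.28-fold apart. It was at 4905 and 3040 in revert and 3294 and 2318 in KG03723. As for AttD, the rm7 PBS signals of DptB, edin, Listericin and, below, PGRP-LB were the lowest of the 6 arrays. Those of CecB and Def were not. For edin and Listericin the rm7 bacteria signal also lay below every signal of the other genotypes.

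Of 29 listed IMD pathway genes, 22 were above the floor in rm7, 11 above 0 and 11 below, with a median of -0.00. Members that feed back on the pathway were separated from the signalling chain by their known role after the values had been seen, so this division is a description. The 9 negative regulators had a median of 0.44, with 6 above 0, and the 11 genes of the signalling core a median of -0.04, with 4 above and 7 below. PGRP-LA and PGRP-LE were placed in neither group. PGRP-LB, an amidase that breaks down peptidoglycan, was at 712 in rm7 bacteria and 336 in rm7 PBS, 2.12-fold apart, against 564 and 407 in revert and 486 and 514 in KG03723. PGRP-SB1, another amidase, was at 13049 in rm7 bacteria and 6972 in rm7 PBS (0.90). Its signal was lower after bacteria in the other genotypes, at 5470 against 7289 in revert and 6088 against 11468 in KG03723. The rm7 bacteria array thus had the highest PGRP-SB1 signal of the 6.

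Further regulators lay above 0 by less than 2-fold. The gene pirk, whose product binds the receptor and dampens it, was at 417 in rm7 bacteria and 258 in rm7 PBS (0.69). PGRP-LF, a receptor-like protein without signalling ability, was at 233 and 146 (0.67), with rm7 bacteria before rm7 PBS. PGRP-LA, which is not counted among the negative regulators, was at 284 and 177 (0.68) in the same order. PGRP-SC2, an amidase, was at 3843 and 2833 (0.44) in the same order. POSH, a ubiquitin ligase that acts on the kinase Tak1, went the other way, at 515 in rm7 bacteria and 818 in rm7 PBS (-0.67). The negative regulators CYLD (-0.11) and casp (-0.01) also lay below 0. In the core, Relish (Rel) was the gene farthest from 0, at 1399 in rm7 bacteria and 970 in rm7 PBS (0.53), close to its ratio of 0.70 in revert and 0.53 in KG03723. The adaptor gene imd was at 208 and 220, Fadd at 283 and 306, Dredd at 512 and 526, and the kinase subunit genes key at 1179 and 1152 and IKKbeta at 497 and 546, again with rm7 bacteria before rm7 PBS. These 5 genes all lay within 0.14 of 0 on the log2 scale, well inside the spread over genes of their brightness.

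**Figure D2:**
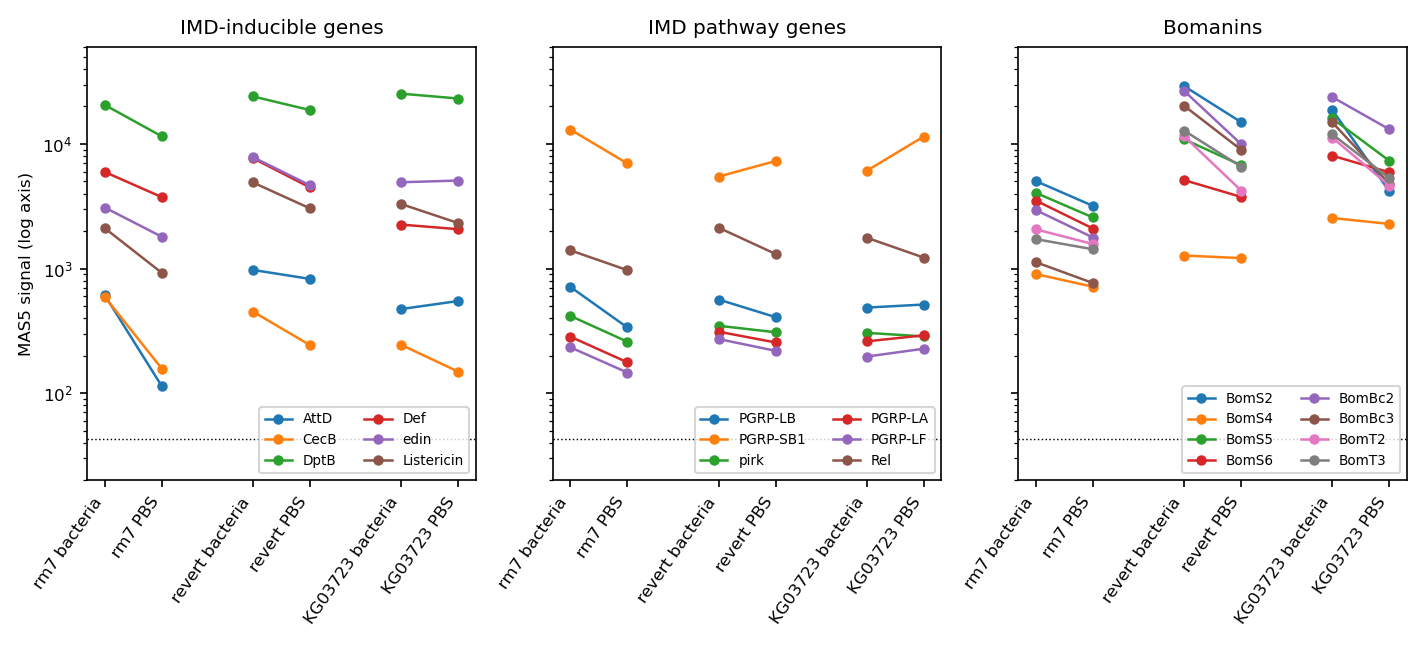
MAS5 signal (log axis) on the 6 arrays, with bacteria left of PBS within each genotype, for IMD-inducible genes, IMD pathway genes and bomanins; each line joins the 2 arrays of 1 genotype, and the dotted line is the floor of 42.7. AttD and CecB have the steepest lines in rm7, PGRP-SB1 slopes the other way in revert and KG03723, and the 8 bomanins lie between 714 and 5029 in rm7.

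Bomanins, short secreted peptides that depend on Toll, were at a low level in rm7 but were still slightly higher after bacteria. All 8 measured bomanin genes had positive log2 ratios (median 0.60), and 0 of them reached 2-fold. The medians were 0.96 in revert and 1.15 in KG03723, where 3 and 5 reached 2-fold. Over all genes 0.644% were 2-fold higher in rm7, 0.611% in revert and 0.496% in KG03723. The summed signal of the 8 was 21331 in rm7 bacteria and 14095 in rm7 PBS, against 117576 and 56399 in revert and 107159 and 47519 in KG03723. The level after bacteria in rm7 was therefore below the level after PBS in either other genotype. BomS6 was at 3507 in rm7 bacteria and 2095 in rm7 PBS (0.74), a larger ratio than in revert (0.45) or KG03723 (0.44). BomBc2 was at 2942 and 1773 in rm7 (0.73), against 26637 and 9958 in revert (1.42).

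The rm7 ratios of the 8 bomanins lay between 0.27 and 0.74. BomS2 was at 5029 in rm7 bacteria and 3181 in rm7 PBS (0.66), and BomS5 at 4045 in rm7 bacteria and 2570 in rm7 PBS (0.65), close to the revert ratio of BomS5 (0.69). BomBc3 was at 1123 in rm7 bacteria and 765 in rm7 PBS (0.56), against 20235 and 8977 in revert (1.17) and 14889 and 4793 in KG03723 (1.64). BomT2 was at 2061 in rm7 bacteria and 1572 in rm7 PBS (0.39), against 11515 and 4226 in revert (1.45). The 2 genes of type T, BomT2 and BomT3, had small ratios in rm7 beside 0.96 to 1.45 in the other genotypes, whereas BomS4 was at 902 in rm7 bacteria and 714 in rm7 PBS (0.34), beside 0.07 and 0.16. BomT3 was at 1721 in rm7 bacteria and 1427 in rm7 PBS (0.27), against 12794 and 6566 in revert.

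Of the other Toll-responsive peptides, Mtk, an antifungal and antibacterial peptide gene that both pathways can induce, was at 29644 in rm7 bacteria and 18424 in rm7 PBS (0.69). Its signal after bacteria in rm7 lay beside those of revert (30062) and KG03723 (29460). The antifungal gene Drs was at 12983 in rm7 bacteria and 9916 in rm7 PBS (0.39), against 27602 and 20396 in revert and 28717 and 18196 in KG03723. Drsl5 was at 1245 in rm7 bacteria and 1136 in rm7 PBS (0.13), and Drsl3 at 82.1 and 61.2, near the floor. Drsl4 was at 4328 in rm7 bacteria and 3581 in rm7 PBS, against 542 to 784 on the 4 other arrays, so it was high in rm7 after either injection. Drsl1, Drsl2, Drsl6 and BaraB were below the floor on both rm7 arrays, although Drsl2 was at 464 to 877 in the other genotypes. In all, 17 of 26 listed genes were on the array, 13 were above the floor in rm7, and all 13 lay above 0, with a median of 0.42.

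The 4 genes of the extracellular cascade that were at least 2-fold higher after bacteria in revert had ratios near 0 in rm7. SPE, whose product is the protease that processes Spätzle, was at 957 in rm7 bacteria and 835 in rm7 PBS (0.20), against 6745 and 2259 in revert and 6528 and 3058 in KG03723. The serpin gene nec, an inhibitor of the protease Persephone, was at 731 in rm7 bacteria and 689 in rm7 PBS (0.09), against 3705 and 1362 in revert and 4197 and 1666 in KG03723. For both genes the 2 rm7 signals were the lowest of the 6. The protease gene Hayan was at 132 in rm7 bacteria and 124 in rm7 PBS (0.09), against 407 and 133 in revert. The protease gene spirit was at 175 in rm7 bacteria and 180 in rm7 PBS (-0.05), against 224 and 103 in revert. Over the 16 measured genes of 21 listed, 10 lay above 0 and 6 below, with a median of 0.08, which became -0.06 under quantile normalization. The highest ratio was that of sphinx2, which encodes a protease homologue without catalytic activity, at 119 in rm7 bacteria and 59.6 in rm7 PBS, just under 2-fold; the lowest was that of the recognition protein gene GNBP2, at 168 and 250 (-0.57).

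Intracellular Toll pathway genes were mostly a little lower in rm7 bacteria. The median over all genes was itself -0.07 at signals of 300 to 1000 and -0.06 at 1000 to 3000, so part of this shift is shared. Of 15 measured genes 1 lay above 0 and 14 below in rm7. The median was -0.13 in rm7, 0.05 in revert and 0.16 in KG03723. In rm7 0 of the 15 reached 2-fold, where 0.981% of all genes did in either direction. When the probe sets of each gene were averaged, the rm7 median was -0.04, with 2 above 0 and 13 below. The kinase gene pll was at 389 in rm7 bacteria and 578 in rm7 PBS (-0.57), and the adaptor gene tub at 825 in rm7 bacteria and 1158 in rm7 PBS (-0.49). Tl, the receptor gene itself, was at 2584 in rm7 bacteria and 3421 in rm7 PBS (-0.41). The inhibitor gene cact, itself a Toll target, was at 2921 in rm7 bacteria and 3679 in rm7 PBS (-0.33). In the other genotypes cact was higher after bacteria, at 5447 against 3933 in revert and 5513 against 3465 in KG03723. The NF-kappaB genes dl (898 in rm7 bacteria, 986 in rm7 PBS) and Dif (63.5 and 64.8) had ratios of -0.13 and -0.03. Several of these genes, pll, tub, Tl, cact and dl among them, are also deposited in the egg, and the ovary germline genes listed below had a median of -0.19; the part of the ovary in these ratios was not tested.

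Whether the response of rm7 differed from that of the other genotypes was tested with limma in a fit of the 6 arrays. The only residual degree of freedom is the difference between the revert and KG03723 responses, so the standard errors hold no rm7 replicate error. The tested difference contains the rm7 ratio itself. For genes singled out by an extreme rm7 ratio, such as AttD, CecB, Cp16, Cp19, CG13083 and Femcoat, a large difference partly follows from that choice. Over 9540 genes, 0 (0.0%) were higher and 0 (0.0%) lower at a Benjamini-Hochberg adjusted p under 0.05, and the smallest adjusted p was 0.0957. At an unadjusted p under 0.05, 603 genes (6.32%) were higher and 536 (5.62%) lower. About 477 of the 9540 genes would be expected under that unadjusted threshold, both directions together, if no response differed. The smallest adjusted p belonged to Cp19 and CG13083, the lower genes described below. For AttD the limma difference was 2.41 ± 0.28 (SE, 6 arrays, adjusted p = 0.331), for PGRP-SB1 1.57 ± 0.24 (adjusted p = 0.412) and for CecB 1.11 ± 0.31 (adjusted p = 0.412). For nec it was -1.30 ± 0.13 (limma adjusted p = 0.315), for SPE -1.14 ± 0.23, for BomT2 -0.97 ± 0.13 and for cact -0.90 ± 0.14 (adjusted p = 0.412 for each of the 3). Under quantile normalization 1 gene passed as higher, the reductase gene Cyt-b5-r (1.77, limma adjusted p = 0.0464), and 2 as lower, Cp19 (-3.81) and CG13083 (-3.67), both at an adjusted p of 0.0102.

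Genes at least 2-fold apart in both revert and KG03723 were followed into rm7, whose 2 arrays had no part in choosing them; the set was nonetheless picked with earlier results of these data known. Of 22 genes higher in both, 18 were above the floor on an rm7 array and 0 reached 2-fold there. Over all genes 0.644% were 2-fold higher in rm7, so this count alone does not set the 18 apart from other genes. Their median log2 ratio was 0.21 in rm7, with a range of -0.31 to 0.60. Over all 22 the medians were 1.52 in revert and 1.48 in KG03723, where the choice of genes placed them beyond 2-fold. The gap to rm7 can therefore partly follow from that choice. The hormone gene Lst (limostatin) was at 1236 in rm7 bacteria and 1062 in rm7 PBS, against 1580 and 362 in revert and 1884 and 660 in KG03723. Its rm7 PBS signal was already above the PBS signals of the other genotypes. CG4757 was at 125 in rm7 bacteria and 82.3 in rm7 PBS, against 13895 and 1907 in KG03723. Diedel, which encodes a secreted immune regulator, was at 333 in rm7 bacteria and 248 in rm7 PBS, against 15872 and 5690 in revert and 4256 and 450 in KG03723. Spn28Dc, a serpin gene that regulates melanization, was at 105 in rm7 bacteria and 130 in rm7 PBS, against 693 and 288 in revert. CG33462, CG30091, CG30287 and CG42680 were below the floor on both rm7 arrays.

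Of 24 genes at least 2-fold lower in both other genotypes, 2 reached 2-fold in rm7, where 0.337% of all genes were 2-fold lower. The median in rm7 was -0.14, with a range of -1.45 to 0.63, against -1.41 in revert and -1.36 in KG03723. The choice of genes again placed the revert and KG03723 medians beyond 2-fold. Differences between rm7 and these genotypes, that of Lsp2 included, use the same chosen values. The 2 were Obp99b, an odorant-binding protein gene, at 1313 in rm7 bacteria and 3576 in rm7 PBS (2.72-fold lower), and Lsp2, a storage protein gene, at 787 in rm7 bacteria and 1583 in rm7 PBS (2.01-fold lower). Lsp2 was at 218 and 2431 in revert and at 362 and 5719 in KG03723, bacteria before PBS. The rm7 ratio of Lsp2 was therefore the smallest of the 3 genotypes, and the limma difference was 2.72 ± 0.25 (SE, adjusted p = 0.315). Of the 24, 17 lay below 0 in rm7 and 7 above. The enzyme gene Cyp4ac2 had a log2 ratio of -0.64 in rm7, and CG11594 one of -0.48. Cyt-b5-r was at 2829 in rm7 bacteria and 3097 in rm7 PBS, against 804 and 3130 in revert. The sorbitol dehydrogenase gene Sodh1 was at 2547 in rm7 bacteria and 3344 in rm7 PBS, against 870.5 and 3302 in revert. Miox, for inositol oxygenase, was at 1494 and 1487 in rm7 and at 576 and 1599 in revert, and regucalcin at 4358 and 4707 in rm7 and 1451 and 3579 in revert, each with bacteria before PBS.

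**Figure D3:**
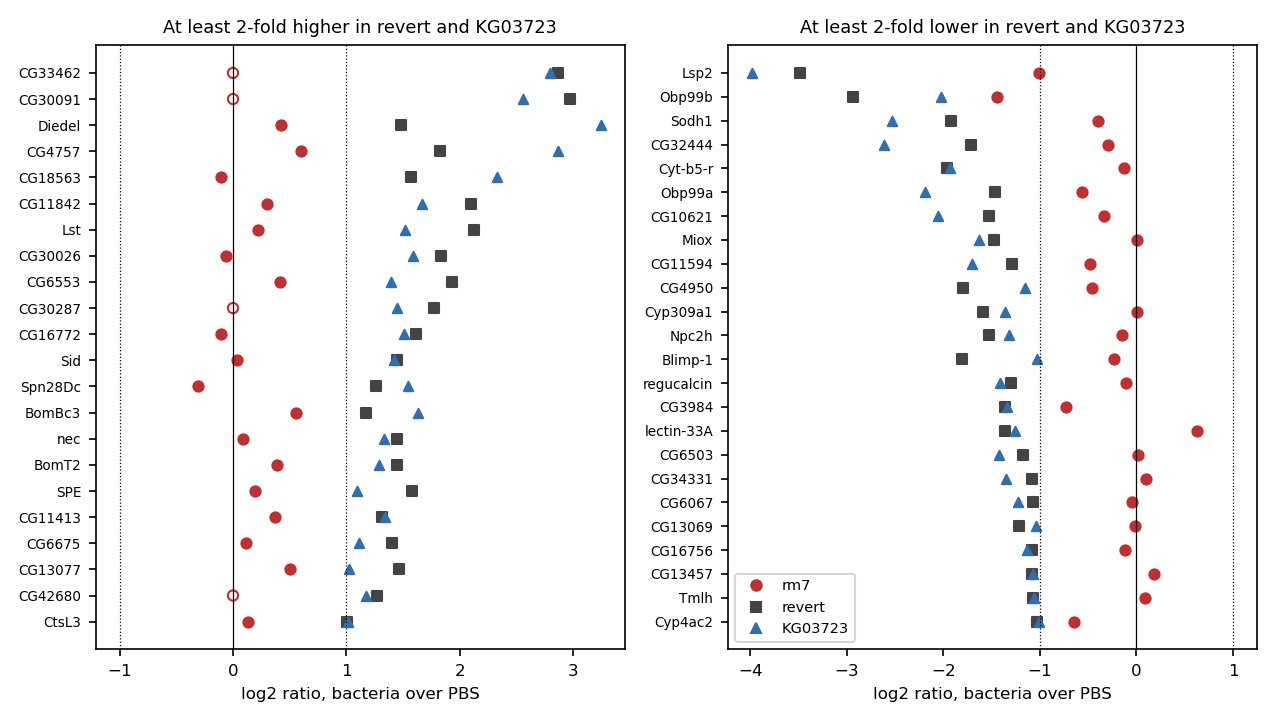
Log2 ratio of bacteria over PBS for the 22 genes at least 2-fold higher (left) and the 24 at least 2-fold lower (right) in both revert and KG03723, with rm7 in red; open circles are genes at or below the floor on both rm7 arrays, and dotted lines mark 2-fold. In rm7 the higher genes lie between -0.31 and 0.60, and on the lower side Lsp2 (-1.01) and Obp99b (-1.45) reach 2-fold.

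Read the other way, of the 63 genes at least 2-fold higher in rm7, 0 were among the 59 of revert (0.611% of 9655 genes) and 1, the Nimrod gene NimB1, was among the 48 of KG03723 (0.496% of 9669 genes), which is 1.59% of the rm7 list and 2.08% of the KG03723 list. NimB1 was at 159 in rm7 bacteria and 77.7 in rm7 PBS. Of the 33 lower genes, 3 (CG43755, Lsp2 and Obp99b) were among the 346 of revert (3.58% of genes), or 9.09% of the rm7 list and 0.867% of the revert list. With KG03723, where 87 genes (0.9%) were lower, 6 were shared (CG1077, CG10962, CG12716, CG15571, Lsp2 and Obp99b), or 18.2% and 6.9% of the 2 lists. Across 8784 genes above the floor on all 6 arrays, the log2 ratios of rm7 had a Pearson r of -0.321 with those of revert and -0.166 with those of KG03723, and those of revert and KG03723 had an r of 0.282. These correlations are across genes, which are not independent replicates, and they include the opposite ratios of male tissue genes described below.

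Late chorion genes, which serve the last step of eggshell building, were among the lowest in rm7, together with Femcoat and several genes without a given name. Follicle cells around the oocyte secrete the vitelline membrane first and the chorion after it, and the 4 late chorion genes Cp15, Cp16, Cp18 and Cp19 stand side by side in a cluster that these cells amplify. In the RefSeq table of Release 6 the order on chromosome arm 3L is Cp18, Cp15, Cp19, Cp16, with 0 protein-coding genes between neighbours. Cp16 was at 660 in rm7 bacteria and 8507 in rm7 PBS, 12.9-fold lower, and Cp19 at 622 in rm7 bacteria and 7565 in rm7 PBS, 12.2-fold lower. Cp18 was at 1330 in rm7 bacteria and 5128 in rm7 PBS, 3.86-fold lower, and Cp15 at 4354 in rm7 bacteria and 11958 in rm7 PBS, 2.75-fold lower. All 4 signals of rm7 bacteria were the lowest of the 6 arrays for their gene. In whole flies, fewer cells of a type and less RNA per cell cannot be told apart.

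The other genotypes did not show this pattern. The median log2 ratio of the 4 late chorion genes was -2.78 in rm7, -0.06 in revert and 1.19 in KG03723, and their summed signal was 6965 in rm7 bacteria and 33158 in rm7 PBS, 38457 and 38320 in revert, and 47576 and 22959 in KG03723, bacteria before PBS. In KG03723 the late chorion genes were higher after bacteria, with log2 ratios between 0.38 for Cp19 and 1.52 for Cp18. The limma difference between rm7 and the others was -3.79 ± 0.20 for Cp19 (SE, adjusted p = 0.0957), -4.07 ± 0.43 for Cp16 (adjusted p = 0.316), -2.58 ± 0.75 for Cp18 and -2.27 ± 0.58 for Cp15 (adjusted p = 0.412 for these 2). None of the 4 passed the threshold of 0.05. The extreme rm7 ratios of Cp16 and Cp19 are part of these differences. Femcoat, an eggshell protein gene, was at 52.6 in rm7 bacteria and 567 in rm7 PBS, 10.8-fold lower, against 615 and 812 in revert and 733 and 674 in KG03723 (limma difference -3.29 ± 0.31, adjusted p = 0.315). The mucin gene Muc12Ea was at 158 in rm7 bacteria and 524 in rm7 PBS, 3.32-fold lower.

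Genes of earlier eggshell stages had smaller ratios. The early chorion genes Cp36 (4474 in rm7 bacteria, 6300 in rm7 PBS) and Cp38 (2723 and 4895) had log2 ratios of -0.49 and -0.85, close to their ratios of -0.51 and -0.62 in KG03723. Cp7Fc lay above 0, at 980 in rm7 bacteria and 660 in rm7 PBS (0.57). The 9 genes of the vitelline membrane and its assembly had a median of -0.20 and a range of -0.36 to 0.29. Vm26Aa was at 23963 in rm7 bacteria and 21688 in rm7 PBS (0.14), and Vm34Ca at 41453 in rm7 bacteria and 33939 in rm7 PBS (0.29). These were the only 2 of the 9 above 0, and under quantile normalization 0 of the 9 lay above 0 and 8 below. The Vm34Ca signals were the highest on either rm7 array. The whole eggshell list of 22 measured genes had 5 above 0 and 17 below (49.6% of all genes lay below 0), 6 of them at least 2-fold lower, with a median of -0.28, against -0.00 in revert and -0.12 in KG03723. The 3 stage groups were formed by known role after the values had been seen.

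Genes without a given name lay with the late chorion genes at the lower end. CG13083 was at 66.7 in rm7 bacteria and 856 in rm7 PBS, 12.8-fold lower, against 1462 to 1670 on the 4 other arrays (limma difference -3.61 ± 0.17, adjusted p = 0.0957). Its immediate neighbour on 2L in Release 6, CG13084, was at 7.88, below the floor, in rm7 bacteria and 268 in rm7 PBS, at least 6.28-fold lower, against 447 to 771 on the other arrays. CG15571, which has 1 protein-coding gene between it and Femcoat on X, was at 39.7 in rm7 bacteria and 246 in rm7 PBS, at least 5.77-fold lower. CG15571 was also lower after bacteria in KG03723, at 327 against 732. CG31926 was at 31.8 in rm7 bacteria and 173 in rm7 PBS, at least 4.06-fold lower, and CG31928, with 1 gene between them on 2L, at 124 and 325, 2.61-fold lower. Ilp8, an insulin-like peptide gene, was at 210 in rm7 bacteria and 400 in rm7 PBS (-0.93), against 707 and 770 in revert and 450 and 291 in KG03723.

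**Figure D4:**
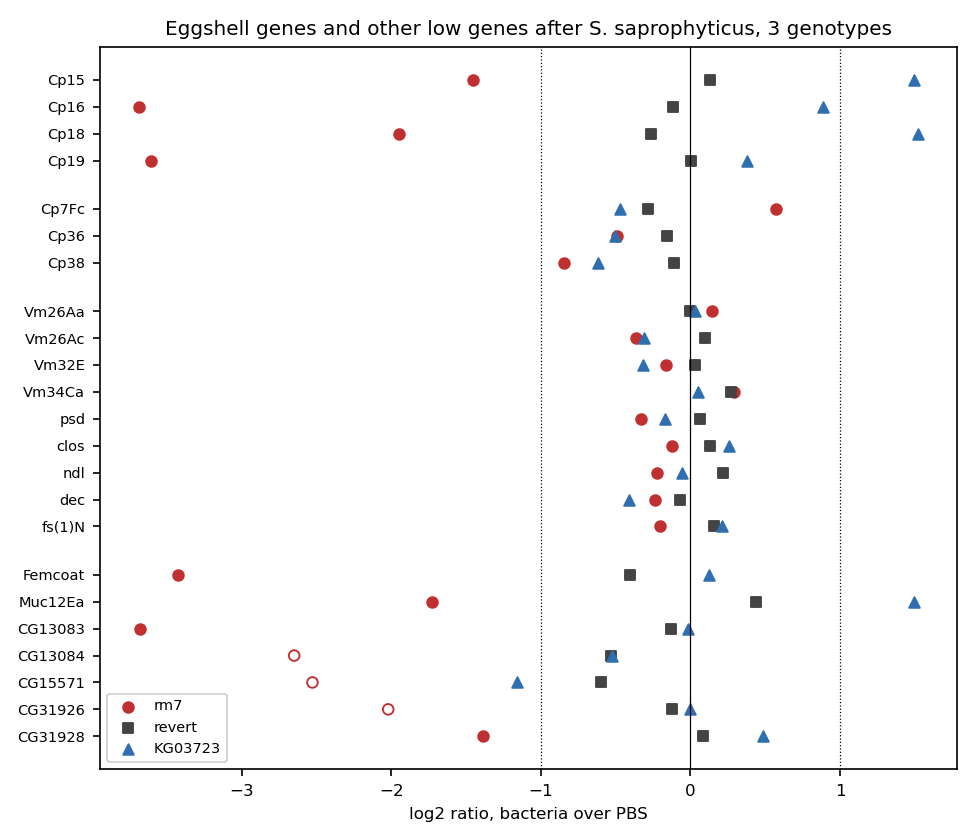
Log2 ratio of bacteria over PBS for late chorion genes (top), early chorion genes, vitelline membrane and assembly genes, and further eggshell or unnamed genes among the lowest in rm7 (bottom); red circles are rm7, open circles bounds with the rm7 bacteria array at the floor, squares revert and triangles KG03723. Late chorion genes lie at -3.69 to -1.46 in rm7 and at -0.26 to 1.52 in the other genotypes, while the vitelline group lies within -0.41 and 0.29 in all 3.

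Beyond the eggshell, the lower genes were a mixed set. Srg2, a gene regulated by Sting, was at 263 in rm7 bacteria and 571 in rm7 PBS, 2.17-fold lower. Its level differed widely between genotypes, at 106 and 75.5 in revert and 1316 and 1672 in KG03723. CG43085 was at 529 in rm7 bacteria and 1075 in rm7 PBS, against 127 or less on the other arrays. CG31495 (3.09-fold), CG14440 (2.46-fold), CG4497 (2.36-fold), CG5235 (2.24-fold), CG14860 (2.22-fold) and CG10962 (2.21-fold) were lower by the factor given, with rm7 PBS signals of 104 to 346. Spt20, a subunit gene of the SAGA chromatin complex, was at 57.9 in rm7 bacteria and 132 in rm7 PBS, and rt, an O-mannosyltransferase gene, at 67.7 and 147. The genes below the floor in rm7 bacteria with the largest bounds after those above were CG12716, at least 2.67-fold lower, the multicopper oxidase gene Mco4, at least 2.43-fold lower, the chitin deacetylase gene verm, at least 2.17-fold lower, and Z600, a cell cycle inhibitor gene of the early embryo, also at least 2.17-fold lower. All 4 were at 92.6 to 114 in rm7 PBS, in the range where ratios of 2-fold were most frequent. The menin gene Mnn1 also had a bound of over 2-fold from 1 of its probe sets, at 24.7 in rm7 bacteria and 111 in rm7 PBS, but its second probe set was at 62.3 and 71.6 (-0.20).

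At the upper end, several genes besides the immune genes also combined a high ratio with a high signal. Gnmt, for the enzyme that methylates glycine, was at 5611 in rm7 bacteria and 2763 in rm7 PBS, 2.03-fold higher, against 5918 and 4979 in revert and 8677 and 7435 in KG03723. The gene mat was at 2520 in rm7 bacteria and 1118 in rm7 PBS, 2.25-fold higher, against 4879 and 4687 in revert. For both, and for Act88F, the rm7 PBS array was the lowest of the 6. Act88F, the actin gene of the flight muscle, was at 2030 in rm7 bacteria and 988 in rm7 PBS, and TpnC73F, a troponin C gene, at 445 and 207. CG31909 was at 577 in rm7 bacteria and 238 in rm7 PBS, against 320 and 680 in revert. Gpb5, for a glycoprotein hormone subunit, was at 189 in rm7 bacteria and 75.7 in rm7 PBS, against 55.4 to 69.1 on the other arrays.

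The remaining genes at the top were dim. Among the 15 highest genes above the floor on both arrays, CG32628 was at 150 in rm7 bacteria and 47.8 in rm7 PBS, 3.13-fold higher, and CG13947 at 125 and 43.7, 2.86-fold higher. CG11756, CG13044, CG2209, CG14537, MFS1, CG2964, CG4678 and sev, the sevenless receptor kinase gene of the eye, were 2.29-fold to 2.64-fold higher, with rm7 bacteria signals of 102 to 221. The 8 largest bounds were those of CG43072, CG17122, CG34267, CG8157, Rsph4a, CG14785, RpS28a and CG31642, at least 2.28-fold to 3.01-fold higher, with rm7 bacteria signals of 97.4 to 128. Rsph4a encodes a protein of the radial spoke of sperm tails and cilia. The brightest of these genes in rm7 bacteria was CG2964, at 221.

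Tissue markers moved with the comparison, and their summed signals are given because the whole fly was measured and the labels give no sex. Of 37 testis genes above the floor of 51 listed, 33 lay above 0 in rm7 and 4 below, with a median of 0.48 and a summed signal of 38004 in rm7 bacteria and 26193 in rm7 PBS. Mst87F, a sperm protein gene, was at 1042 in rm7 bacteria and 555 in rm7 PBS (0.91), ProtB, a sperm chromatin protein gene, at 474 and 260 (0.87), janB at 1460 and 851 (0.78), and Prosalpha4T1, a testis proteasome subunit gene, at 85.5 and below the floor. In revert the same list had a median of -0.82, with 1 of 38 genes above 0, and in KG03723 a median of 0.01. Of 31 accessory gland genes, 30 lay above 0 in rm7, with a median of 0.43 and a summed signal of 141081 in rm7 bacteria and 106217 in rm7 PBS, against a median of -0.63 in revert. Acp53C14c was at 132 in rm7 bacteria and 61.0 in rm7 PBS (1.11), and antr and CG17575, 2 seminal protein genes that stand next to each other on 2R in Release 6, were at 329 and 162 (1.03) and at 632 and 314 (1.01).

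Female markers did not all move the other way. Of 31 ovary germline genes, 5 lay above 0 and 26 below, with a median of -0.19 and a summed signal of 76246 in rm7 bacteria and 82937 in rm7 PBS; the medians were 0.07 in revert and 0.19 in KG03723. The anterior determinant gene bcd was at 1470 in rm7 bacteria and 2190 in rm7 PBS (-0.58), the piRNA pathway gene krimp at 567 and 837 (-0.56), and bam at 376 and 520 (-0.47). The posterior determinant gene osk was at 9129 in rm7 bacteria and 9323 in rm7 PBS (-0.03). Yolk protein genes lay above 0, with Yp1 at 36417 in rm7 bacteria and 28868 in rm7 PBS (0.34), Yp2 at 33006 and 27981 (0.24) and Yp3 at 32626 and 27206 (0.26). This direction depends on the scaling: the list of 6 yolk and female fat body genes had a median of 0.25 with 4 above 0, and a median of -0.00 with 1 above 0 and 3 below under quantile normalization. The summed signal of the late chorion genes was 6965 in rm7 bacteria and 33158 in rm7 PBS. The part of a different mix of males and females in the eggshell result was not tested.

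Muscle, eye and blood cell markers were also higher in rm7 bacteria, where 50.4% of all genes lay above 0. The shift was not particular to these tissues. Digestive genes had 31 of 37 above 0 (median 0.19), Malpighian tubule genes 9 of 11 (0.08) and neuron genes 6 of 10 (0.12). Of 25 muscle sarcomere genes 24 lay above 0, with a median of 0.32, against -0.06 in revert and -0.20 in KG03723. Besides Act88F and TpnC73F these included the titin-related gene sls, at 714 in rm7 bacteria and 458 in rm7 PBS (0.64), and the myosin light chain gene Mlc1, at 5179 and 3466 (0.58). All 12 photoreceptor genes lay above 0, with a median of 0.28, led by rdgB (0.52) and inaC (0.48). Of 24 blood cell genes 19 lay above 0, with a median of 0.18; NimB1 was the highest, followed by the peroxidasin gene Pxn, at 408 in rm7 bacteria and 293 in rm7 PBS (0.48), and the phagocytic receptor gene eater, at 147 and 109 (0.43). The blood cell marker Hml was at 376 and 364 (0.05) and NimC1 at 342 and 292 (0.23), each with rm7 bacteria before rm7 PBS. Fat body metabolism genes were spread evenly, with 11 of 22 above 0 and a median of -0.01.

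**Figure D5:**
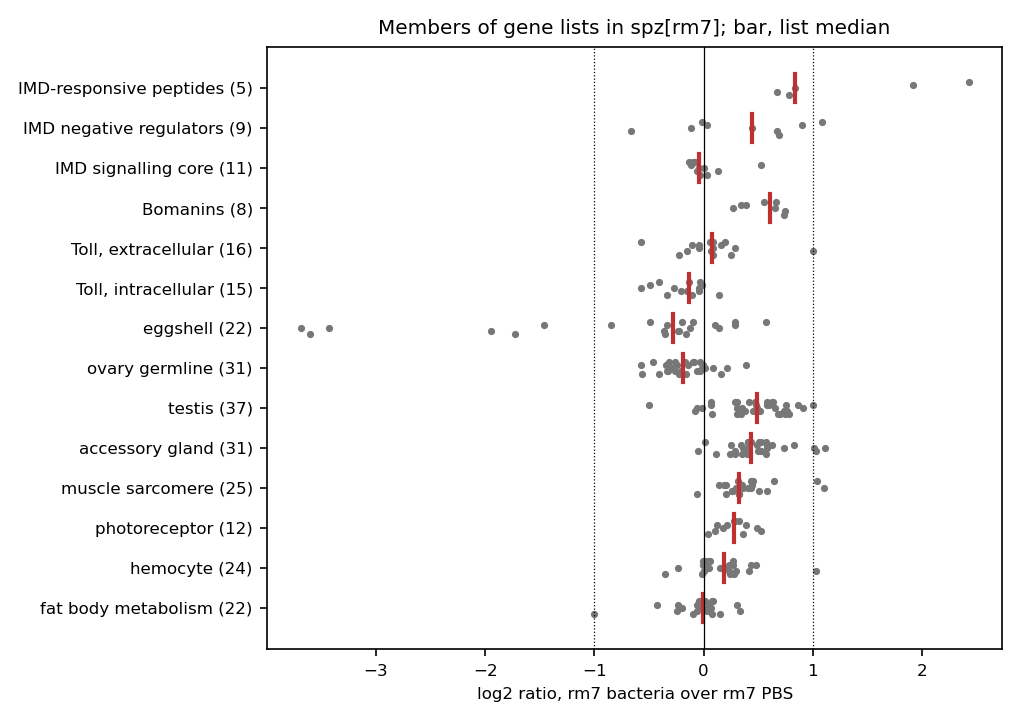
Log2 ratio of rm7 bacteria over rm7 PBS for the members of 14 gene groups, with the number of genes in brackets; each point is 1 gene, the red bar is the group median, and dotted lines mark 2-fold. IMD-responsive peptides (median 0.84) and bomanins (0.60) lie to the right of 0, and the eggshell group has 6 genes left of the 2-fold line.

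Other groups were shifted by smaller amounts. Of 5 genes of the metallothionein list, whose products bind or sense metal ions, 4 lay above 0 and 1 below, and 0 reached 2-fold. The regulator gene MTF-1 was at 706 in rm7 bacteria and 818 in rm7 PBS (-0.21), and MtnB at 2004 and 1576 (0.35). Further members were MtnC at 3539 in rm7 bacteria and 1963 in rm7 PBS (0.85), MtnD at 709 and 407 (0.80) and MtnA at 23382 and 15067 (0.63). The list median of 0.63 became 0.38 under quantile normalization. The JNK target gene scaf was at 378 in rm7 bacteria and 193 in rm7 PBS (0.97), while puc, another target, was at 1087 and 958 (0.18). The stress peptide gene TotC was at 6095 in rm7 bacteria and 5294 in rm7 PBS (0.20), against 26711 and 25097 in revert. Among genes of melanization, PPO1, a prophenoloxidase of crystal cells, was at 289 in rm7 bacteria and 412 in rm7 PBS (-0.51), and PPO2 at 394 and 357 (0.14). The heat shock genes were evenly split, with 5 of 10 above 0, and the clotting gene fon was at 3018 in rm7 bacteria and 3115 in rm7 PBS (-0.05). Cytosolic ribosomal protein genes had 39 of 41 above 0 and a median of 0.24, which was 0.02 under quantile normalization, and 32 proteasome genes had 8 above 0 and a median of -0.11. Of 11 antiviral genes on the array, 10 were above the floor, with 3 above 0 and 7 below; Sting was at 770 in rm7 bacteria and 962 in rm7 PBS (-0.32).

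Across the scalings, floors, pseudocount and probe set rules tried, 18 of the 96 genes kept a ratio of at least 2-fold under every setting. The 9 higher genes were AttD, CecB, Listericin, PGRP-LB, Gnmt, mat, Act88F, CG31909 and CG9897, and the 9 lower genes were Cp15, Cp16, Cp18, Cp19, Femcoat, Muc12Ea, CG13083, Obp99b and Srg2. CG9897 was at 512 in rm7 bacteria and 229 in rm7 PBS, against 359 and 196 in revert and 448 and 486 in KG03723. Of these 18 genes, 4 were immune genes of the IMD and Listericin group and 6 were on the eggshell list. No gene of the 96 changed direction under any of these settings.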

How the data were processed

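Total RNA of whole adult flies was hybridised to single-colour Affymetrix arrays. The authors deposited linear intensity values, 1 for each probe set on each array. They come from MAS5, according to the submitters' processing notes, whose version is unknown (not given in the sources used here). Of 18952 probe sets, 183 controls were dropped; 13647 had 1 gene in the platform annotation, 402 several and 4720 none. RefSeq Release 6 held 13544 of the single-gene probe sets and changed 0 symbols. Each of 11982 genes was read from its brightest probe set. The floor of 42.7 was applied before log2, and a fold against a floored array is written as "at least". With 1 array per group, the number of arrays limits precision and ratios have no test.

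The rm7 difference was fitted with limma 3.58.1 in R 4.3.3 (genotype, injection and rm7 by injection; only genes that exceeded the floor on 3 or more arrays; variance trend; Benjamini-Hochberg) and tested on simulated data. There the fit recovered 46% of 100 genes changed by a log2 of 1 and 87% of 100 changed by a log2 of 2. It also called 26 unchanged genes, so it missed many 2-fold changes and made false calls. Other steps used pandas 2.3.3, numpy 2.4.6 and scipy 1.17.1; figures used matplotlib 3.10.9. Members, gene lists and the rule for named genes were chosen with earlier results of these data known. The rule takes spz, the 15 genes at either end among those measured on both rm7 arrays, the 8 largest bounds each way, all Toll and IMD genes, the 4 largest changes each way in other lists, and 6 each way past the threshold of the fit. Genes outside it, such as Gnmt, mat, CG9897, CG17575, CG43085, osk and Hml, were named after their values were seen. Alternatives were quantile and cyclic loess normalization, subtraction of the median ratio, floors at the 20th and 60th percentile, log2(signal + 20), the mean over probe sets, a 3-fold threshold, and for the fit no variance trend or only genes above the floor on all 6 arrays.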

Additional observations from a re-analysis of the deposited data

How the results depend on the processing

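The 63 higher genes became 37 under quantile normalization, 368 with a floor at the 20th percentile, 10 with a floor at the 60th, 123 with log2(signal + 20) and 4 at a 3-fold threshold. The 33 lower genes became 256, 11, 90 and 10 under the last 4 of these. Cyclic loess, subtraction of the median ratio and the mean over probe sets left both counts within 1.5 times, and so did quantile normalization for the lower genes (45). The Toll-responsive peptide median of 0.42 was 0.60 with the floor at the 20th percentile and 0.54 with log2(signal + 20); the IMD-responsive and eggshell medians moved by less than 0.1 under every alternative run. Of the 96 genes, 68 stayed at least 2-fold apart under quantile normalization, 78 under cyclic loess, 21 with the floor at the 60th percentile and 54 with log2(signal + 20), and 0 changed direction. In the limma fit, quantile normalization gave 1 higher and 2 lower genes in place of 0 and 0; a floor at the 60th percentile, no variance trend and genes above the floor on all 6 arrays gave 0 and 0. The causes of these moves were not tested, except that a higher floor or threshold leaves fewer genes able to pass. No paired analysis was possible because each group has 1 array, which leaves no replicate numbers to pair; genotype is a term of the limma fit. For the same reason no array could be left out of a ratio, and the number of arrays and the signal over the floor limit every value; ratios of genes near the floor are the least certain.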

Other observations

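Probe sets that the annotation ties to several genes or to none were counted apart and are not named. Of 1365 of them above the floor on an rm7 array, 11 lay above the 2-fold line and 8 below it in rm7 bacteria over rm7 PBS. Among the 9783 genes with a probe set of their own, 63 (0.644%) and 33 (0.337%) did. Mitochondrial ribosomal protein genes gave a narrow spread, with 35 of 69 above 0 and a median of 0.00 between -0.32 and 0.24 in rm7, against 64 of 69 above 0 in revert and 46 of 69 in KG03723. Genes of oxidative phosphorylation had 62 of 70 above 0 in rm7 (median 0.18, and 0.08 under quantile normalization), against 25 of 71 in revert and 21 of 70 in KG03723. Genes of the secretory pathway had 11 of 24 above 0 in rm7 (median -0.01), against 23 of 24 in revert (0.24) and 20 of 24 in KG03723 (0.14). Over all genes 50.4% lay above 0 in rm7, 49.4% in revert and 53.9% in KG03723. The differences between genotypes in these lists were not tested.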
